A study of Mus musculus with 2 samples.

Results

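Broad hotspots over gene starts are stretches of at least 3 kb in which DNase I cut chromatin more often than its surroundings and which contain the transcription start site (TSS) of a protein-coding gene. They were taken from neural tube, the embryonic precursor of brain and spinal cord, of B6NCrl mouse embryos at 11.5 days, with male and female embryos pooled. The study held 1 group of 2 biological replicate libraries, which carry the same donor label and are called replicate 1 and replicate 2, and no treatment, mutant or second tissue. A region was kept when its hotspot in replicate 1 reached 3 kb, lay on chromosomes 1 to 19, held a coding TSS and overlapped a hotspot of at least 2 kb in replicate 2. This left 726 regions, which is 5.05% of the 14365 hotspots of replicate 1 with a coding TSS and a small part of its 158595 hotspots in all. The lengths chose the regions and are given as a description. Since 1 group has nothing to be compared with, no test over samples was run. Values are given in both libraries, with the interquartile range (IQR) over regions. They stand beside 10074 TSS hotspots of 1 to 3 kb and 91 broad hotspots without a coding TSS that met the same length limits. Those 91 had a median length of 4480 bp in replicate 1, against 3800.5 bp for the regions, so they were not matched in length.

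DNase I cuts DNA that is not held tightly in nucleosomes, and a promoter in use usually shows a short open stretch of nucleosome-free DNA just upstream of its TSS. Genes of developmental regulators are often embedded in long stretches of CpG-rich DNA, which Polycomb and Trithorax group proteins occupy in many embryonic tissues. The neural tube is patterned by transcription factors of the homeobox, Sox, Fox, basic helix-loop-helix (bHLH) and zinc finger families, which set up domains of progenitors and later classes of neurons.

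Of the 1378 hotspots of replicate 1 that reached 3 kb, 0.869% of all its hotspots, 1065 held a coding TSS. Those 1065 made up 7.41% of TSS hotspots, and 726 of them had the required partner in replicate 2. Of the 339 left out, 289 had a partner of 1 to 2 kb and 50 a shorter one, and 0 had none. Hotspots were shorter in replicate 2, where the median TSS hotspot measured 1121 bp against 1514 bp in replicate 1, and where 1.85% of 14095 TSS hotspots reached 3 kb and 10.7% reached 2 kb. Sequencing depth is unknown, since the files hold no read counts, and its part in these lengths was not tested.

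The 150 bp peaks inside these regions show what the open sequence looks like. Peaks found in both libraries with the best mean score rank, overlapping no annotated exon, are printed for 6 of the 12 longest regions (by the mean of both libraries), with coordinates in mm10, bases on the plus strand and matches to the motifs named below in capitals.
Zic2, chr14:122474196-122474345: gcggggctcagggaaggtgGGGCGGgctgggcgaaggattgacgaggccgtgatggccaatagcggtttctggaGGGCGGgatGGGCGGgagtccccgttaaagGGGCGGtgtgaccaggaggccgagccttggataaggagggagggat
Dmrta2, chr4:109977816-109977965: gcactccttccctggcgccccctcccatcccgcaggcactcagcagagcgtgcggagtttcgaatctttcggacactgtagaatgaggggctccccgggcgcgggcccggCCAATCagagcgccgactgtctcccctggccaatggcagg
Tnrc18, chr5:142817816-142817965: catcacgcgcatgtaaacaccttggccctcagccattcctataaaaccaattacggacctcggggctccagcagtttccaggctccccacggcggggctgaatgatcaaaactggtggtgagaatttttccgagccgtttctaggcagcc
Tlx3, chr11:33200176-33200325: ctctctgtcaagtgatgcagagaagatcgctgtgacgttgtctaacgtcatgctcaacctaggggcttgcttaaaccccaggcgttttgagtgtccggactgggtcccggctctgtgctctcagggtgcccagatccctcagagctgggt
Tbx1, chr16:18591776-18591925: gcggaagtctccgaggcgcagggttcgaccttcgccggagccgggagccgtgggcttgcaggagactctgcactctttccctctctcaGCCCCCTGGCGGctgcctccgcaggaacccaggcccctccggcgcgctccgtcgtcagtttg
Dlx2, chr2:71546756-71546905: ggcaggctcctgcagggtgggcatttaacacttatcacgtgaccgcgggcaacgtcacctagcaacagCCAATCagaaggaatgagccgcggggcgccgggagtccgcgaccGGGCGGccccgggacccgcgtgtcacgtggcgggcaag

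Positions are those of the peak centre relative to the most upstream TSS of the region, negative upstream. The Zic2 peak, at -1164 bp, held 4 copies of the GC box that Sp and KLF proteins recognise, and the Dlx2 peak, at -77 bp, held a GC box and the CCAATC of NF-Y. A CCAATC also lay in the Dmrta2 peak, at -162 bp. The Tbx1 peak, at -1180 bp, held a match to the CTCF consensus. No searched motif occurred in the Tnrc18 peak, at -229 bp, or in the Tlx3 peak, which lay at 3338 bp, past the end of the gene. Their GC content ran from 54.7% for Tnrc18 to 70.0% for Tbx1.

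Transcription factor genes were common among the genes that start in broad hotspots. The regions held starts of 763 of 20807 coding genes, or 3.67%, and 208 of 797 factor genes, or 26.1%, against 555 of 20010 other genes, or 2.77%. The counts rest on the library that sets the limit, since with the libraries swapped 256 regions and 267 genes qualified. Of these 267 genes, 254 were among the 761 symbols found in the broad regions, and 33.7% encoded factors. Seen from the other side, 27.3% of the genes in broad hotspots encoded factors, with an exact binomial 95% interval of 24.2% to 30.6% that covers counting error only and treats genes as independent. The share was 3.52% of 10520 genes starting in hotspots of 1 to 3 kb and 3.83% of all coding genes. Altogether 211 regions, or 29.1%, held the start of a factor gene and 515 did not. Most regions served 1 gene, with 678 holding starts of 1 gene, 46 of 2 genes and 2 of 3 gene IDs. In these last, Ddit3 with Mbd6 and Gcat with H1f0, the annotation gives 1 symbol 2 IDs, so 763 IDs stand for 761 symbols.

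The share of factor genes was higher over longer hotspots in each library taken alone. In replicate 1 it was 1.84% for genes whose longest TSS hotspot measured 1 to 1.5 kb, 7.52% at 2.5 to 3 kb, 15.8% at 3 to 4 kb, 32.1% at 4 to 5 kb, 46.2% at 5 to 7 kb and 83.3%, or 70 of 84 genes, at 7 kb or more. In replicate 2 the shares in these bins were 3.19%, 19.2%, 32.7%, 34.1%, 7 of 20 genes and 3 of 3 genes. The exact 95% binomial intervals of the bins from 3 to 7 kb overlapped in replicate 2, so no order among them was resolved there.

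**Figure D1:**
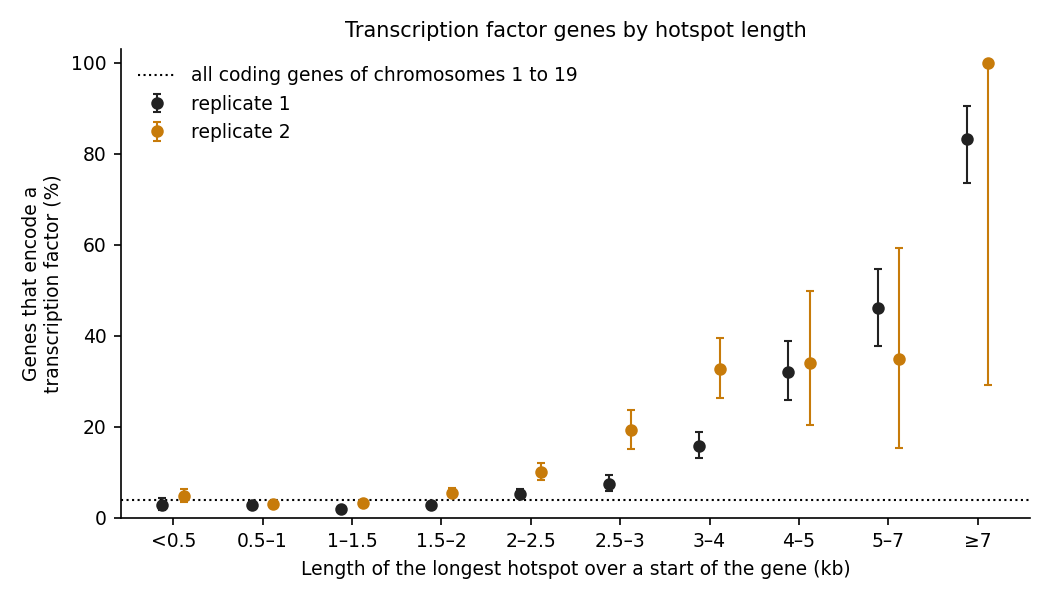
Percentage of genes that encode a transcription factor (y axis) by the length of the longest hotspot over a start of the gene in kb (x axis), for replicate 1 in black and replicate 2 in orange, with exact binomial 95% intervals and a dotted line at 3.83% for all coding genes. Both libraries lie near the line below 2 kb and rise to 83.3% and 100% at 7 kb or more.

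The regions had a median length of 3800.5 bp in replicate 1 (IQR 3274.5 to 4919) and held a median of 3271 bp of replicate 2 hotspots. Regions with a factor gene measured 4679 bp (IQR 3774 to 6557.5), against 3575 bp (IQR 3221 to 4326.5) for those without. Their bases in replicate 2 hotspots were 3983 and 3104 bp, in the same order. Length in replicate 1 and bases in replicate 2 followed each other with a Pearson r of 0.936 and a Spearman rho of 0.878 over 726 regions, a description of regions chosen on both. In replicate 2 the stretch was more often broken: 219 regions met 1 hotspot of replicate 2 and 507 met several, up to 15. At the limit of 3 kb, Brpf3 had 3000 bp, Cacna1c 3001 bp and Pde5a 3002 bp, whereas Lpp with 2998 bp, Foxp2 with 2997 bp and Kcmf1 with 2995 bp fell outside. Bases in replicate 2 were 2242, 2856 and 2507 bp for the first 3 genes and 2456, 2985 and 2257 bp for the others, and the ranges overlapped.

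**Figure D2:**
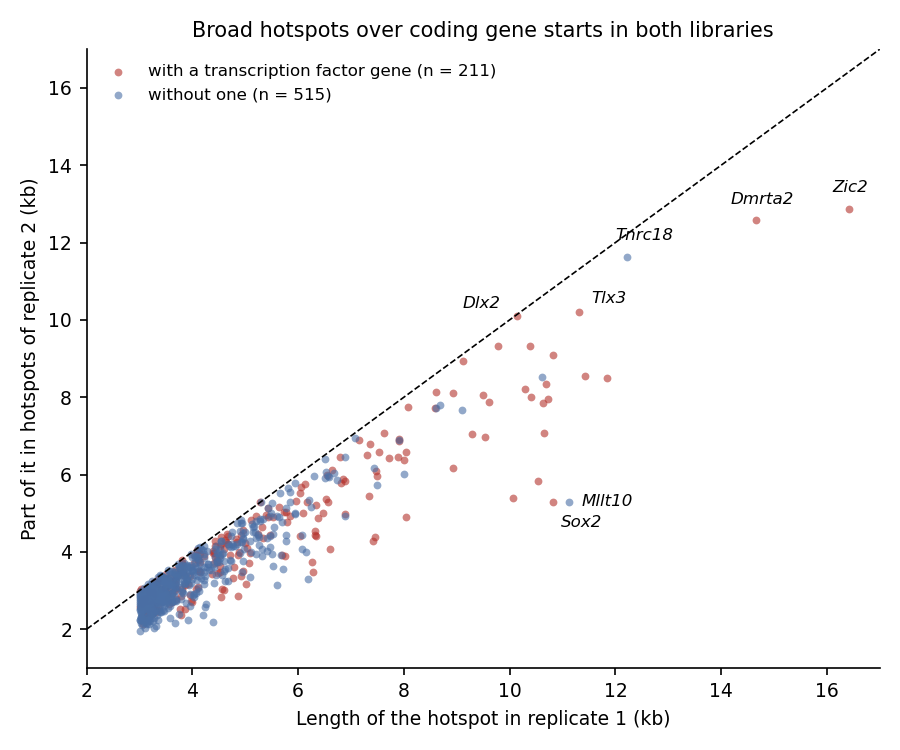
Length of each of the 726 regions in replicate 1 (x axis, kb) and the part of it in hotspots of replicate 2 (y axis, kb), with 211 regions that hold a factor gene in red and 515 that do not in blue, and a dashed line of equality. Zic2 and Dmrta2 stand at the top right and Sox2 and Mllt10 lie farthest below the line.

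Ranked by the mean of length in replicate 1 and bases in hotspots of replicate 2, the 12 longest regions held a factor gene in 10 cases. By replicate 1 length alone, Mllt10, Sox2, Foxa1 and Gata6 would stand above some of them. The longest covered Zic2, a zinc finger gene of dorsal neural tube, for 16413 bp, of which 12872 bp were in hotspots of replicate 2, with 24 and 21 peaks in replicates 1 and 2. Dmrta2, a doublesex-related regulator of cortical progenitors, had 14660 and 12571 bp and the most peaks, 27 and 30, of which 24 of replicate 1 overlapped a peak of replicate 2. Tlx3, a selector of excitatory dorsal horn neurons, had 11308 and 10214 bp. All 3 genes lay wholly inside their hotspot of replicate 1.

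The other factor genes of this set have roles in the nervous system, in other tissues or in both. Tbx1, a T-box gene of pharyngeal mesoderm, had 11839 bp in replicate 1 and 8489 bp in replicate 2, and Tbx2, its relative in limb and eye, had 10823 and 9089 bp. Dlx5 and Dlx2, homeobox genes of forebrain interneurons and craniofacial tissue, had 11429 and 8555 bp and 10141 and 10090 bp. Otx1 of forebrain and midbrain had 9789 and 9320 bp. Ebf2, a factor of differentiating neurons, had 10388 and 9314 bp, and Sox14, a factor of ventral interneurons, had 10681 and 8339 bp. Within this set Dlx2 had the largest share of its replicate 1 length in replicate 2 hotspots and Tbx1 the smallest.

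The remaining members of the 12 encode no factor of the lists used. Tnrc18, a gene of a chromatin-associated protein with a BAH domain, had 12225 and 11629 bp and lay more upstream than downstream of its TSS. Il3ra, a cytokine receptor subunit, had 10621 and 8523 bp with a CpG ratio of 0.398, and only 1 and 2 other distal peaks lay within 50 kb, against a median of 11 and 8 over all regions. Of 56 regions of 7 kb or more, 45 held a factor gene and 11 did not. Those 11, listed after the count was seen, were at Tnrc18, Mllt10, Il3ra, Skor1, Ccnd2, Bahcc1, Pura, Cyp26b1, Gdnf, Zfp36l1 and Pcdh7.

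**Figure D3:**
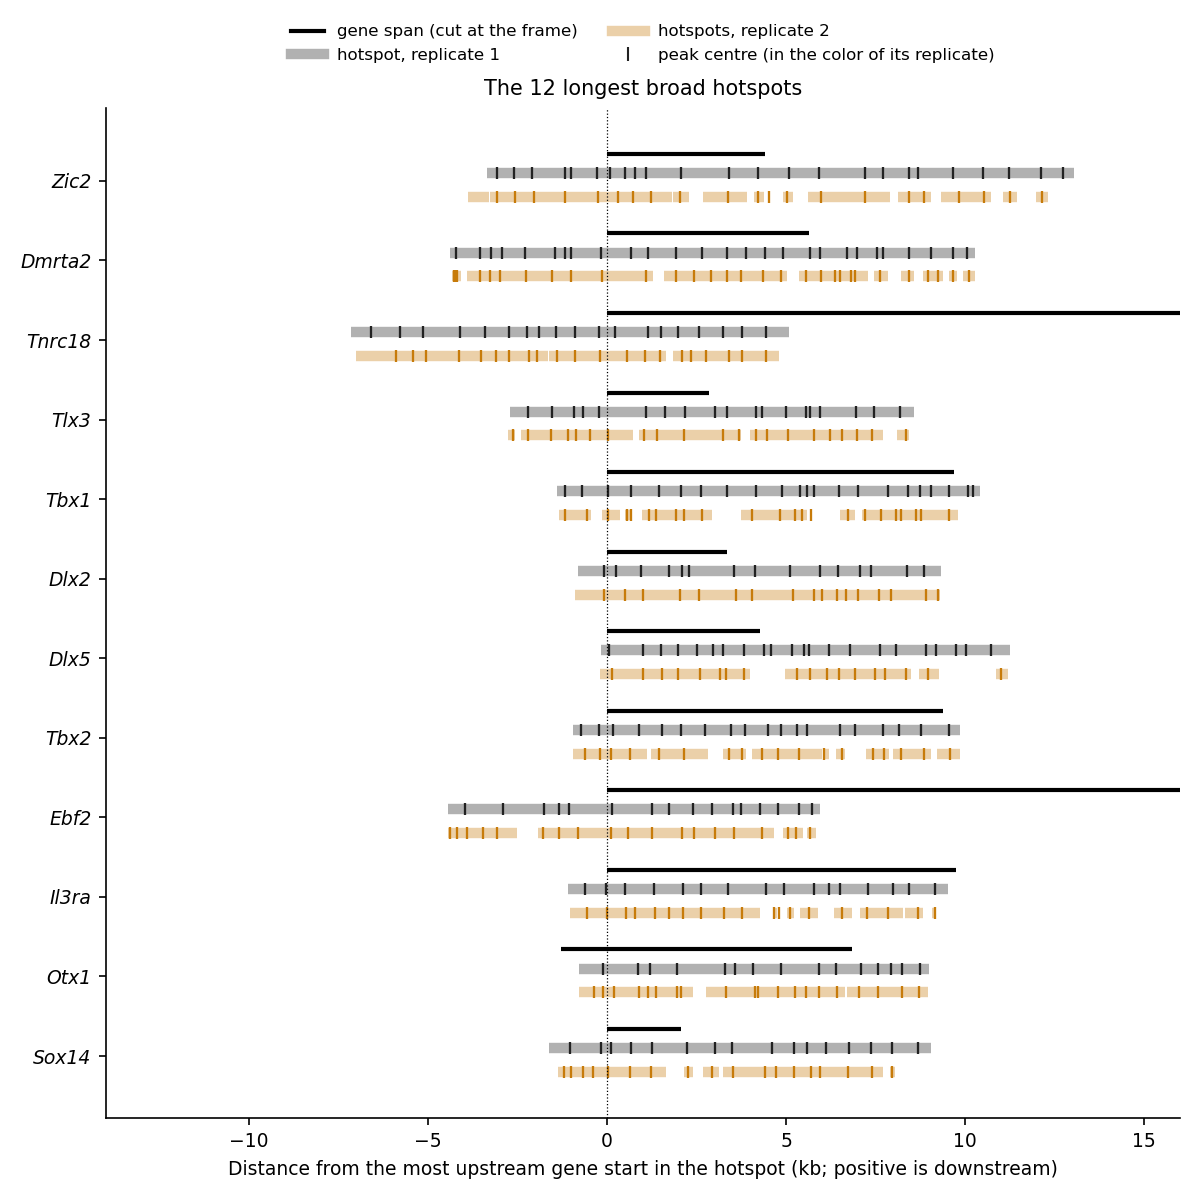
The 12 regions with the largest mean of replicate 1 length and replicate 2 bases, along the distance from the most upstream gene start in each (x axis, kb, positive downstream), with the gene as a black line, hotspots of replicate 1 in grey and of replicate 2 in orange, and peak centres as ticks. Zic2, Dlx2, Dlx5, Tlx3 and Sox14 are open well past the end of the gene, and most replicate 1 hotspots are met by several of replicate 2.

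The homeobox family gave 67 of its 210 genes, or 31.9%, with a median length of 5686 bp in replicate 1 and 4443 bp in replicate 2 for the regions they start in. Dlx5, Tlx3 and Dlx2 were among its longest. Dlx1 and Dlx2, neighbours of opposite orientation, had 1 region each within a span of 19548 bp. Of the Hox genes, which specify position along the hindbrain and spinal cord, 6 of 39 qualified, among them Hoxd3 with 9127 bp, Hoxb9 with 6175 bp, Hoxb3 with 6124 bp and Hoxc4 with 3984 bp. Hoxd3 held the longest hotspot with a coding TSS in replicate 2, of 8948 bp.

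Sox and HMG genes had the highest share among the factor families, 11 of 25. Sox2, the general factor of neural progenitors, had 10819 bp in replicate 1 but 5289 bp in replicate 2, Sox14 had 10681 and 8339 bp, and Sox21 had 9279 and 7038 bp. The T-box family gave 5 of 16, namely Tbx1, Tbx2, Tbx15, Tbx18 and Tbr1. Named C2H2 zinc finger genes gave 49 of 156, led by Zic2, Osr2 with 10625 bp and Prdm6 with 10055 bp. By contrast, 7 of 414 zinc finger genes with Zfp-type names, a group made up largely of KRAB-type repressors, were present, which is 1.69%, below the 3.67% of all coding genes. Those 7 were Zfp36l1, whose product binds RNA, Zfp703, Zfp516, Zfp532, Zfp503, Zfp423 and Zfp827.

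Among Fox genes 11 of 41 had a broad hotspot, the longest at Foxa1, a floor plate and endoderm factor, with 10721 and 7965 bp, Foxf2 with 10527 and 5837 bp, and Foxb2 with 7894 and 6448 bp. The bHLH family gave 24 of 102, led by Id2, an inhibitor of bHLH dimers, with 7633 and 7070 bp, Mycn with 6647 and 6108 bp, and Atoh1, the selector of the most dorsal interneurons, with 6280 and 3488 bp. Nuclear receptors gave 8 of 45, with Esrrg at 6548 bp, Nr4a3 at 5772 bp and Nr2f2 at 5647 bp. Other factor families gave 34 of 204, led by Dmrta2, Gata6 and Ebf2. Every factor family lay above the 3.67% of all coding genes, from 16.7% in the mixed group to 44.0% for Sox and HMG.

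Outside the factors, genes of cell communication also stood above the background. Signalling ligands, receptors and antagonists gave 42 of 220, or 19.1%, with Cyp26b1, which degrades retinoic acid, at 7915 bp, the MAP kinase phosphatase gene Dusp4 at 6309 bp and Crabp2, which carries retinoic acid, at 5810 bp. Adhesion and axon guidance genes gave 34 of 210, led by the protocadherins Pcdh7, Pcdh10 and Pcdh17. Chromatin regulators gave 26 of 152, with Arid1a, a BAF subunit, at 6882 bp, and RNA-binding genes 19 of 146, led by Zfp36l1 and Mex3b. Cell cycle regulators gave 4 of 89, the cyclin genes Ccnd2 and Ccnd1 and the stress genes Gadd45b and Gadd45g, and ion channels and transmitter receptors 10 of 235, both near the background. Solute carriers gave 6 of 358, or 1.68%.

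Ribosomal protein genes gave 0 of 90 and replication-dependent histone genes 0 of 67, although 63 and 12 of these genes started in hotspots of 1 to 3 kb. Of 21 housekeeping genes 1 qualified, Gapdh with 3829 and 3642 bp, and 18 started in shorter hotspots. Genes in none of the lists gave 402 of 17897, or 2.25%, led by Tnrc18, Mllt10 and Il3ra.

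**Figure D4:**
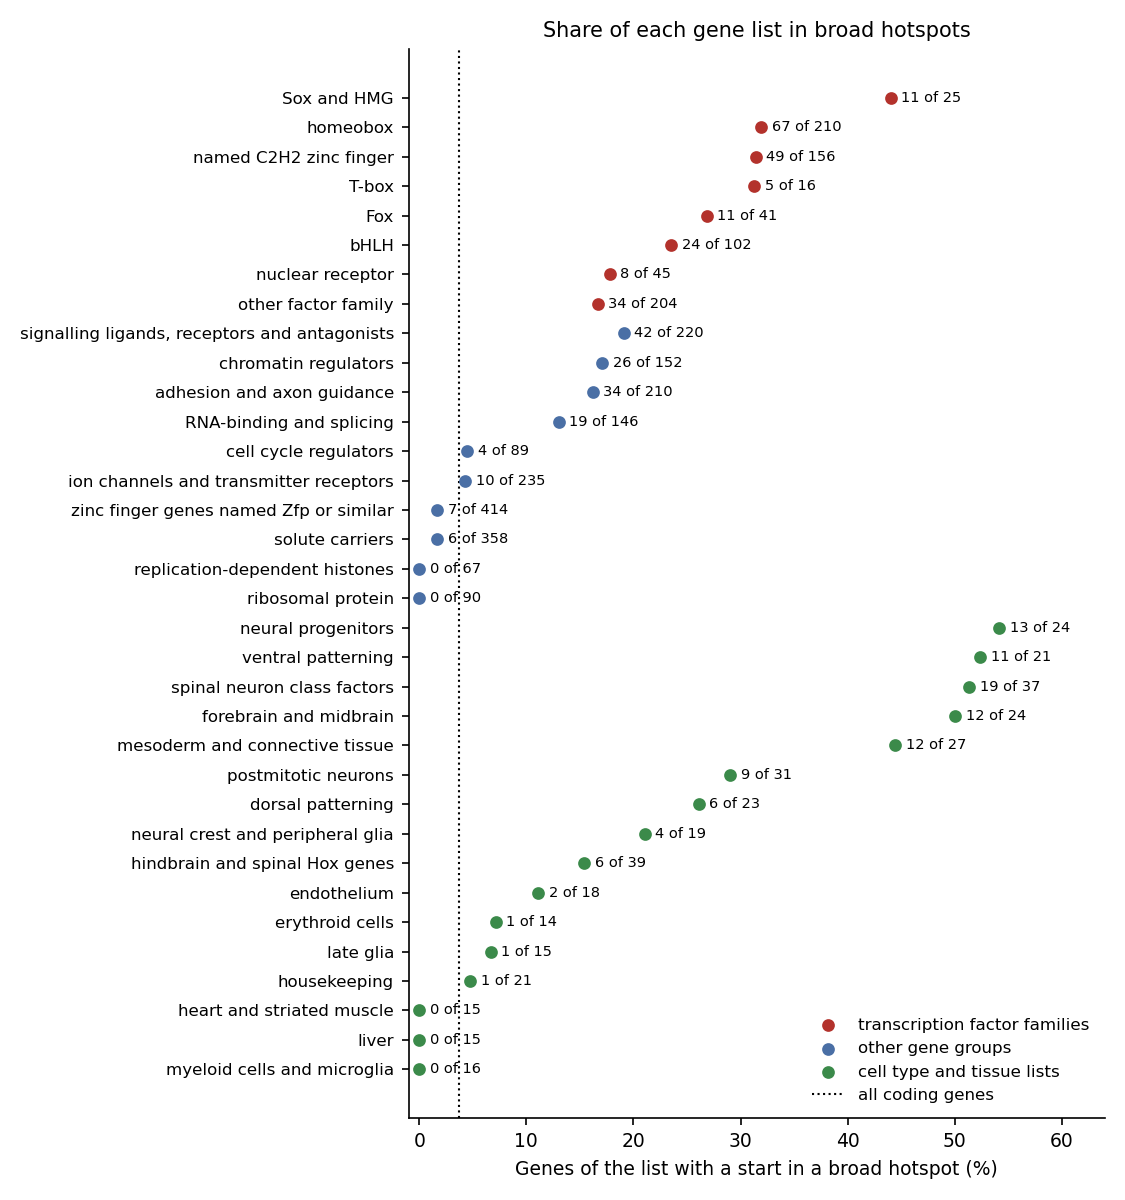
Percentage of the genes of each list that start in a broad hotspot (x axis), with factor families in red, other gene groups in blue, cell type and tissue lists in green, counts beside the points and a dotted line at 3.67% for all coding genes. All factor families and most other lists lie to the right of the line, including those of endothelium, erythroid cells and housekeeping genes. Zfp-type zinc finger genes and solute carriers lie to the left, and ribosomal, histone, liver, muscle and myeloid lists are at 0.

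Lists of neural cell types were counted in the same way. Broad hotspots were found at 13 of 24 neural progenitor genes, led by Sox2, Sox21 and Pax6, at 11 of 21 ventral and 6 of 23 dorsal patterning genes, and at 19 of 37 factors of spinal neuron classes. Forebrain and midbrain genes gave 12 of 24, and genes of postmitotic neurons 9 of 31, among them Ebf2, Ebf3 and Gad1, which encodes an enzyme of GABA synthesis. The dorsal genes included Zic2, Msx1 and Atoh1. Pax6, the eye and ventral progenitor factor, had 2 regions, of 8598 bp and 5277 bp, and the shorter was covered in full by replicate 2. Many genes of these lists encode factors, so the lists and the families share members. The share was 3.67% over all coding genes and 26.1% over all factor genes. The dorsal list, also at 26.1%, was level with factor genes as a whole.

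Lists of other tissues of the embryo gave mixed counts. Mesoderm and connective tissue gave 12 of 27, including Tbx1, Tbx15 and Prrx1, a share like that of the neural lists. Neural crest gave 4 of 19, including Tfap2a and Twist1, endothelium Sox7 and Sox17 of 18, erythroid cells Tal1 of 14, which is also a factor of ventral interneurons, and late glia Pdgfra of 15. Liver with 0 of 15, heart and striated muscle with 0 of 15 and myeloid cells with 0 of 16 had none, in lists so short that the background of 3.67% would give about as few. In pooled tissue, wide opening in a part of the cells and in all of them cannot be told apart, so no region is assigned to a cell type.

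The regions extended farther downstream of the TSS than upstream. Over the 678 regions with the starts of 1 gene, a median of 63.7% of the length lay downstream (IQR 49.5% to 77.6%), and 62.0% (IQR 52.2% to 71.4%) in the hotspots of 1 to 3 kb. These shares were measured from the most upstream TSS of the gene in the region. Where only 1 TSS was held, they were 61.3% over 280 broad regions and 60.8% over 3907 shorter hotspots. Around the TSS, 67.2% of regions with a factor gene, 40.5% of other broad regions and 5.17% of shorter TSS hotspots were covered by a replicate 1 hotspot 3 kb downstream. Upstream by 3 kb the shares were 43.6%, 16.9% and 5.37%. In replicate 2 they were 46.1%, 27.6% and 2.89% downstream and 27.0%, 9.92% and 3.75% upstream. The order of the 3 kinds was the same in both libraries, and cover beyond the TSS was part of the choice by length.

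**Figure D5:**
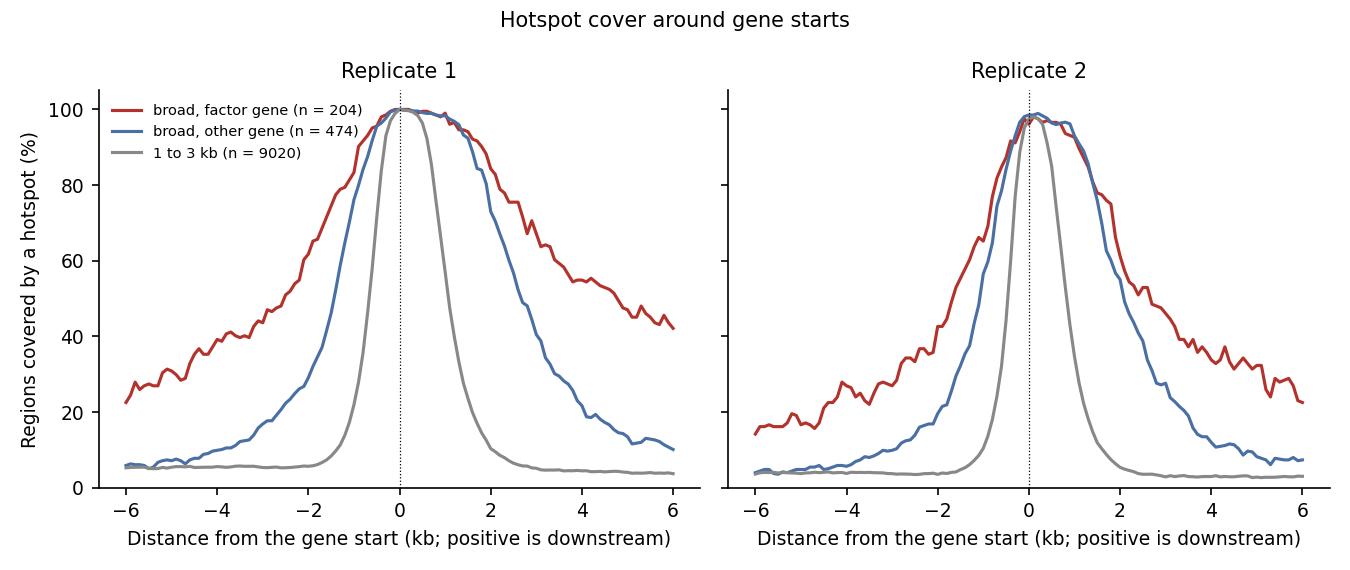
Percentage of regions covered by a hotspot (y axis) against distance from the gene start in kb (x axis, positive downstream) in replicate 1 on the left and replicate 2 on the right, for broad regions with a factor gene in red, other broad regions in blue and TSS hotspots of 1 to 3 kb in grey. In both kinds of broad region cover falls off more slowly downstream, and regions with a factor gene keep 47.1% at 5 kb in replicate 1 and 32.4% in replicate 2.

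Broad hotspots took in the whole gene more often when the gene was a factor. The body of a gene lay wholly inside 37 regions, or 5.10%, and inside 71 of the shorter TSS hotspots, or 0.705%. With a factor gene the count was 27 of 211, or 12.8%, and without one 10 of 515, or 1.94%. Fully covered genes included Zic2, Dmrta2, Tbx1, Dlx5, Tlx3, Tbx2, Sox2, Sox14 and Dlx2. Factor genes in broad hotspots had a median length of 15.6 kb (IQR 5.28 to 79.5 kb). For the other genes there it was 48.8 kb (IQR 11.8 to 136 kb), and for all coding genes 17.6 kb (IQR 6.68 to 45.6 kb). Regions with a factor gene were also longer, 4679 against 3575 bp at the median in replicate 1. Gene length and region length are thus measured differences that go with the counts of whole genes, and their part in them was not tested.

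Starts of noncoding RNA genes also lay in these regions. At least 1 was found in 189 regions, or 26.03%, in 11.0% of the shorter TSS hotspots and in 27.5% of broad hotspots without a coding TSS. Region length moved with this share, and its part was not tested. Examples among the genes named above are Dmrta2os at Dmrta2, Dlx6os1 at Dlx5, Dlx1as at Dlx2 and Pax6os1 at Pax6. Regions with a factor gene had one in 28.4% of cases and the others in 25.05%. A total of 11 genes started in more than 1 broad region, with 3 at Gse1 and 2 each at the others, which included Bdnf, Hoxd3, Mecom, Pax6, Tfap2a and Wnt5a. Of all regions, 24 lay within 20 kb of another, in 12 runs.

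Peaks were deposited at a fixed width of 150 bp, so a broad region holds several. The 726 regions held 5042 peaks in replicate 1 and 4960 in replicate 2, which is 1.57 and 1.54 per kb, against 1.24 and 1.24 per kb in the shorter TSS hotspots and 1.59 and 1.61 in broad hotspots without a coding TSS. Neighbouring peaks were a median of 540 and 520 bp apart, against 500 and 500 bp in the shorter TSS hotspots. Gaps were taken only within a hotspot, so in the shorter class they cannot exceed its limit of 3 kb. The spacing of peaks in the classes therefore cannot be compared. Factor regions had 1.64 and 1.61 peaks per kb and the others 1.523 and 1.501. Among the shorter TSS hotspots, those with a factor gene had 1.44 and 1.39 and the others 1.231 and 1.234. Length differs between the classes by choice, and its part in peaks per kb was not tested. After Dmrta2 and Zic2, the regions with the most peaks found in both libraries were those of Tnrc18 with 15 of 19, Wt1, a zinc finger gene of kidney and spinal interneurons, with 15 of 20, and Foxa1 with 14 of 19 in replicate 1. Foxa1 tied at 14 with other regions, Hoxd3, Lbx1, Tbx1 and Tbx15 among them.

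Peaks of broad hotspots were shared between libraries less often within 250 bp of a TSS, and more often from 250 bp to 2 kb, than those of shorter TSS hotspots. Broad regions had to meet a replicate 2 hotspot of at least 2 kb, whereas shorter ones needed only an overlapping hotspot there. The choice by replicate 2 thus enters the comparison, and its part was not tested. Of all their peaks, 75.9% in replicate 1 and 78.5% in replicate 2 overlapped a peak of the other library, against 80.6% and 81.5% in TSS hotspots of 1 to 3 kb. Peaks of factor regions were shared at 72.8% and 75.6%, and those of the other regions at 77.8% and 80.2%. Within 250 bp of a TSS lay 21.1% and 22.1% of the peaks, against 55.3% and 55.4% in the shorter class. The classes were chosen by length, which enters this comparison, and its part was not tested. Within 250 bp the shares found in both libraries were 88.2% and 86.6% in broad hotspots and 92.4% and 92.7% in shorter ones. At 250 to 500 bp they were 73.8% and 75.4%, against 67.8% and 69.4%, at 500 bp to 1 kb 74.7% and 75.8%, against 66.4% and 65.6%, and at 1 to 2 kb 74.2% and 78.9%, against 62.4% and 70.2%.

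Peaks far from the TSS scored above distal peaks in general. From 2 kb outward they scored below those of broad hotspots without a coding TSS. At 1 to 2 kb the median score percentile was 80.8 in replicate 1 and 73.6 in replicate 2, and at 5 kb or more it was 73.1 and 61.4, with 60.7% and 68.7% found in the other library. All peaks of the genome over 1 kb from a coding TSS had median percentiles of 43.5 and 41.9 and were shared at 48.3% and 66.5%. Peaks at 5 kb or more from a TSS in broad hotspots without a coding TSS had 82.4 and 74.3 and were shared at 77.2% and 77.6%. At 1 to 2 kb the order was the other way, since peaks of those hotspots had 77.6 and 67.4, from 24 and 22 peaks. In replicate 2, the share of peaks in broad TSS regions at 5 kb or more, from 131 peaks, was therefore close to that of other distal peaks. Score and hotspot length come from the same reads, so these values describe the regions.

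In base composition the broad regions were like shorter TSS hotspots, and the CpG-rich DNA around broad hotspots, with or without a coding TSS, was longer. The ratio of observed to expected CpG was 0.665 (IQR 0.580 to 0.747) over the broad regions, 0.671 over hotspots of 1 to 3 kb and 0.493 over broad hotspots without a coding TSS. GC content was 57.4%, 57.1% and 53.7% in the same order. Regions with a factor gene had a ratio of 0.643 and 56.2% GC, against 0.695 and 58.8% in shorter hotspots with a factor gene. Without a factor gene the values were 0.677 and 57.8% in broad regions and 0.670 and 57.0% in shorter hotspots. CpG-rich windows, defined as 200 bp with at least 50% GC and a ratio of at least 0.6, covered 2730 bp of the 10 kb around broad regions (IQR 2160 to 3587.5), against 1260 bp for shorter ones and 2300 bp (IQR 1695 to 3360) for broad hotspots without a coding TSS. Around factor regions they covered 3490 bp and around other broad regions 2530 bp, and around shorter hotspots with a factor gene 1730 bp.

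Length rose with CpG-rich DNA from region to region, with a Pearson r of 0.604 and a Spearman rho of 0.566 for replicate 1 and of 0.657 and 0.627 for replicate 2, over the same 726 regions. The CpG ratio itself was lower in longer regions, with a Pearson r of -0.276 and a Spearman rho of -0.287 for length in replicate 1. These are descriptions across regions of 1 pair of libraries, which share base composition between them. The highest ratios were at Qk with 1.11, Chd7 with 1.07 and Yy1 with 1.06, and the lowest at Map4 with 0.227, Crabp2 with 0.308 and Spaca6 with 0.309. Crabp2 was thus a region of 5810 bp that was poor in CpG. Repeat-masked sequence made up 9.82% of broad regions and 8.21% of shorter ones at the median.

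Peaks at the TSS differed in motif content between the classes. Searches covered both strands of each 150 bp peak. The ETS consensus CCGGAAG, common in promoters of ubiquitous genes, was found in 3.19% and 2.83% of peaks within 250 bp of a TSS in broad hotspots, in replicates 1 and 2, against 12.1% and 12.4% in hotspots of 1 to 3 kb. Median GC was 67.3% and 68.0% in replicates 1 and 2 in both classes, so the medians of GC were equal. In factor regions the ETS shares were 1.68% and 1.98%, and in the other broad regions 3.78% and 3.16%. The YY1 consensus occurred in 0.188% and 0.274% of TSS peaks of broad hotspots, against 0.825% and 0.915% in shorter ones. That of NRF1 occurred in 0.657% and 0.640%, against 1.26% and 1.48%. In replicate 1 these were 2 and 7 of 1066 peaks in broad hotspots, so the counts of both are small.

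Among the other motifs at the TSS the GC box was somewhat less frequent and the POU octamer more frequent. The GC box GGGCGG was in 51.3% and 53.7% of TSS peaks in broad hotspots and in 57.0% and 58.5% in shorter ones, and CCAATC in 13.0% and 11.9%, against 13.5% and 13.3%. The POU octamer ATGCAAAT was found in 1.59% and 1.46% of TSS peaks of broad hotspots, which is 17 and 16 peaks, against 0.567% and 0.532% in shorter ones. Factor regions had it in 3.02% and 2.31%, from 9 and 7 peaks. The CTCF consensus was in 0.281% and 0.366%, against 0.592% and 0.640%. The counts of the octamer and of CTCF are small, and a match is a description of the sequence and not of binding.

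Peaks over 1 kb from a TSS inside broad hotspots were GC-rich and differed from other distal peaks. Their median GC was 56% and 57.3%, against 50% and 52.7% for all other peaks over 1 kb from a TSS. GC boxes were in 19.5% and 22.8%, against 6.22% and 8.22%. The E-box CAGATG, recognised by proneural bHLH factors, was in 10.3% and 9.99%, against 17.3% and 16.8%, and the homeodomain core TAATTA in 2.09% and 1.60%, against 3.88% and 2.55%. HOX-PBX sites, searched as TGATTNAT, were in 1.26% and 0.958%, against 4.04% and 2.62%, and SOX sites, AACAATG, in 1.17% and 1.32%, against 3.02% and 2.31%. GC content moved with these shares, and its part in them was not tested. Broad hotspots without a coding TSS, with a median GC of 56.7% and 58.0%, had 9.79% and 10.8% for CAGATG and 20.14% and 20.98% for GC boxes.

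The surroundings of factor regions held more distal peaks. Within 50 kb of a broad region, outside it and over 1 kb from every TSS, the median number of peaks was 11 (IQR 7 to 18) in replicate 1 and 8 (IQR 4 to 15) in replicate 2, against 8 and 6 around shorter TSS hotspots. Around factor regions it was 16 and 12, against 10 and 7 around other broad regions. Shorter TSS hotspots with a factor gene had 11 and 9, and broad hotspots without a coding TSS had 24 and 18. Nr2f2, a nuclear receptor gene of neural progenitors, had 77 and 50, and Pcdh7 had 1 and 0.

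Among the kept regions, the lowest ratio of replicate 2 bases to replicate 1 length was at Mllt10, whose 11117 bp held 5294 bp of replicate 2 hotspots. Next came Sox2 with 10819 and 5289 bp, and Axin2, a feedback inhibitor of Wnt signalling, with 4387 and 2182 bp. The 339 TSS hotspots left out for a replicate 2 partner under 2 kb are not in this ranking. Regions covered in full by replicate 2 included Cdk2ap1 with 3391 bp, Icam5 with 3237 bp and the shorter Pax6 region. By the authors' q-values 725 regions were at the highest value deposited in replicate 1, the exception being Cdx2.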

How the data were processed

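DNase-seq of 2 replicate libraries of mouse neural tube at 11.5 days was analysed. Per the deposited files, hotspots carry a −log10 q-value by the authors, at most 100, and 150 bp peaks a score by the authors, at most 150, of undocumented meaning. Both were called on mm10 in each library separately. The aligner and caller remain not given in the sources used here. Depth is unknown, as no counts are given. Repeated peak rows, 45 and 22, were removed.

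TSSs were those of protein-coding transcripts in GENCODE vM21 (52092 on chromosomes 1 to 19), and sequence was GRCm38, the same assembly as mm10. Overlap required 1 bp. Score percentiles are ranks within a library. Interval counting was tested on simulated data. Python 3.11.15, pandas 2.3.3, numpy 2.4.6, scipy 1.17.1 and matplotlib 3.10.9 were used. Whether replicates differ by more than technical spread cannot be told from 2 libraries.

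Genes named are the 12 longest regions, the 3 longest of each list, those next to the limit or at the extremes of shared peaks, length ratio, genes held and CpG ratio, and all genes of lists with 10 or fewer; others, such as genes covered whole or starting in several regions, were named after their values were seen. Some genes and sequences that these rules name are not reported here. The regions, lists, motifs and rules were chosen with earlier results of these data known. Factor genes are those of 8 named families, without Zfp-type zinc finger genes. The alternatives varied the length limits, the overlap, the TSSs, the joining of hotspots, the q-value, the peaks kept and the library that sets the limit.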

Additional observations from a re-analysis of the deposited data

How the results depend on the processing

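Of 102 values under alternatives, 55 moved by less than the spread between libraries, by less than 1.5 times for counts, or within the binomial interval of 24.2% to 30.6% for the factor share, and 47 by more. The spread between libraries is 0.00555 percentage points for the downstream share, so nearly any change exceeds it. A limit of 2.5 kb gave 1179 regions, 1266 genes, 19.6% factors, a median of 3203 bp and 1.502 peaks per kb. A limit of 4 kb gave 318 regions, 331 genes, 42.7% factors, 5124 bp, 1.61 peaks per kb, a CpG ratio of 0.624 and 68.8% downstream. With 3 kb in both libraries there were 257 regions, 269 genes, 35.7% factors, 4477 bp, 1.61 peaks per kb and 63.7% downstream. With the libraries swapped there were 256 regions, 267 genes, of which 254 were shared with the 761 symbols reported, 33.7% factors, 3425.5 bp, 1.65 peaks per kb, 80.5% of peaks found in both, a CpG ratio of 0.7055 and 62.6% downstream. Joining hotspots within 150 bp gave 1098 regions, 1178 genes, 1.58 peaks per kb, 74.3% of peaks found in both and 64.04% downstream. Any partner in replicate 2 gave 1.53 peaks per kb and 65.2% downstream, and an overlap of 50% gave 22.9% factors and 62.2% downstream. The 5-prime ends of genes alone, or every transcript, gave 66.1% downstream, and the higher-scoring 50% of peaks gave 1.43 per kb.

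When 1 library alone chose the regions, their number ran from 261 without replicate 1 to 1065 without replicate 2, and genes from 272 to 1115. The factor share ran from 27.9% to 33.8% and the median length from 3437 to 3681 bp. The CpG ratio ran from 0.647 to 0.703 and the downstream share from 62.6% to 65.2%. Peaks of both libraries were still counted inside these regions, with 1.53 to 1.65 per kb and 75.8% to 80.3% found in both. Without replicate 2 the regions were the same as with any partner in replicate 2. The same values therefore stand under both settings among the 102. The number of regions thus rests on the library that sets the limit. Factor shares ran from 19.6% to 42.7% over all alternatives, against 3.83% of all coding genes. No paired analysis was possible because the study has 1 group. Depth is unknown, so no limit of detection was set.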
